A study of Mus musculus with 36 samples.

Results

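The urea cycle and ammonia handling genes described here are Cps1, Otc, Ass1, Asl, Arg1, Nags, Slc25a15, Glud1, Gls2 and Glul. A member is any gene whose name on the array equals one of these 10 symbols. The array named 37061 genes, of which 24097 were bright enough to be tested, and all 10 members were among the tested genes. They were measured by 17 of the 56605 probes, and 16 of these 17 were well above background on all 36 arrays.

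Liver RNA was measured on 1-colour Agilent arrays in male C57Bl/6J mice, with 1 array for each of 36 mice and 6 mice in each of 6 groups. In AAKO mice the gene of ATGL (Pnpla2, adipose triglyceride lipase) is missing from white fat, and CTRL mice are their controls; the labels give neither the Cre driver nor the age. Each genotype was studied fed, after a 24 h fast, or fed with a dose of CL316243, an agonist of the beta3 adrenergic receptor, at 3 mg/kg by gavage at ZT10 (10 h after lights on), and every mouse was killed at ZT16. The fed groups belong to experiment 2 and the other groups to experiment 1, so in any comparison with fed mice the effect of condition and that of experiment cannot be told apart. A gavage is recorded for the CL316243 groups only. Pnpla2 was deleted in fat and not in liver, so these arrays do not check the genotype labels.

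Ammonia released from amino acids is toxic, and the liver turns most of it into urea. CPS1, activated by the N-acetylglutamate that NAGS makes, joins ammonia and bicarbonate in the mitochondrion, OTC adds the product to ornithine brought in by the carrier ORC1 (Slc25a15), and ASS1, ASL and ARG1 complete the cycle in the cytosol. GLUD1 (glutamate dehydrogenase) and GLS2 (the liver glutaminase) release ammonia inside mitochondria, and GLUL (glutamine synthetase) captures, in a thin layer of hepatocytes around the central vein, the ammonia that escapes the periportal urea cycle.

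The probes of the 4 genes whose genotype difference was larger both after fasting and after CL316243 than in fed liver are printed here, because those results rest on them. Positions are on mouse assembly mm9 as the files give them, sequences are those of the array design, 5′ to 3′, and no annotation of that assembly was used to say which exon each lies in. The Cps1 probe lies on the plus strand at chr1:67276029-67276088, the Arg1 probe on the minus strand at chr10:24636194-24636253 and the Nags probe on the plus strand at chr11:102009515-102009574. The Asl probe, on the minus strand at chr5:130487513-130487736, spreads its 60 bases over 224 bases of genome, so it spans at least 1 splice junction.
Cps1: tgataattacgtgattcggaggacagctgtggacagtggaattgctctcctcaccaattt
Asl: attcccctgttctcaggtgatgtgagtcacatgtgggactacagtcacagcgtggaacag
Arg1: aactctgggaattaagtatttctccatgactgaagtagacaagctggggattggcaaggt
Nags: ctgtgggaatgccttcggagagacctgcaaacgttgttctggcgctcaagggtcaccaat

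Between 58.5% and 65.7% of probes were well above background on each array. Every level below is the log2 processed signal minus the 75th percentile of all probes on that array, so 0 is the brightness of a probe at that percentile. Levels of different genes come from different probes and are not compared with each other. A gene is called where the adjusted p of limma's moderated test, corrected over all 24097 genes, was under 0.05. Log2 fold changes are given with their standard errors. Liver markers (Alb, Ttr, Apoa1, Trf, Hnf4a and Cyp2e1) were well above background on all 6 arrays of every group. On the first principal component over all arrays (41.85% of the variance), CTRL fasted replicate 2 stood apart at 80.87, against 16.7 to 28.91 for the other CTRL fasted arrays and 102.3 to 110.3 for AAKO fasted. Without that array the counts of called members were unchanged in 11 of the 12 comparisons, and in fasted against fed CTRL liver 7 members were called in place of 8.

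**Figure D1:**
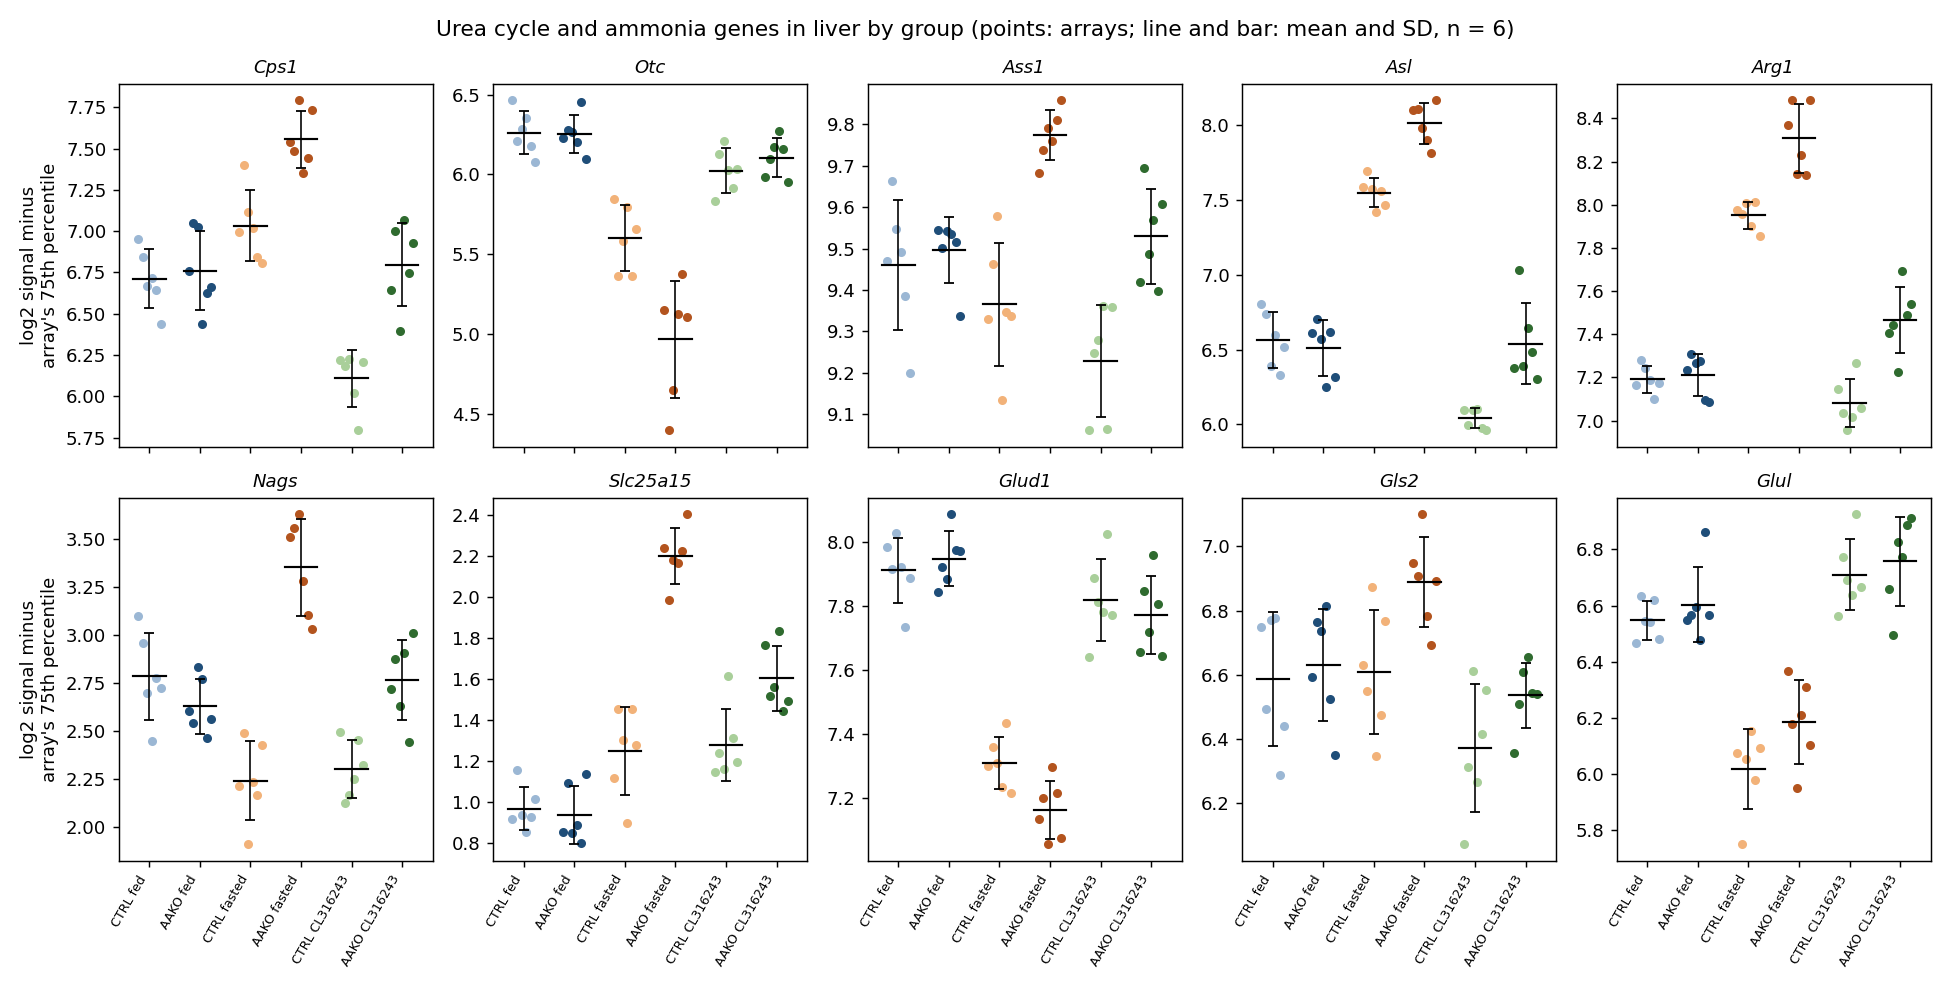
Level of each of the 10 genes on each array (log2 signal minus the array's 75th percentile, y axis; each panel has its own scale) in the 6 groups (x axis); points are arrays, lines and bars the mean and SD, n = 6. By their means, AAKO fasted livers were the highest group for Cps1, Ass1, Asl, Arg1, Nags, Slc25a15 and Gls2 and the lowest for Otc and Glud1.

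In fed liver the genotypes did not separate for any of these genes. None of the 10 members was called in AAKO against CTRL, and none reached an unadjusted p under 0.05. Over all genes tested, 0.0788% were called, 0.0415% higher and 0.0373% lower, and 1637 genes had an unadjusted p under 0.05. The members' log2 fold changes ran from -0.16 for Nags to 0.05 for Glul and Cps1, and their 95% intervals together covered -0.39 to 0.30. Differences within that range were not resolved with 6 arrays a group.

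After a 24 h fast, most of the pathway was higher in AAKO than in CTRL liver, and Otc was lower. Of the 10 members, 8 were called, 7 higher and 1 lower; over all genes tested 49.2% were called, 21.9% higher and 27.3% lower. The median log2 fold change was 0.38 over the members and -0.03 over all genes. The groups did not overlap for 5 members (Ass1, Asl, Arg1, Nags and Slc25a15), against 21.2% of all genes. Within wash batch 1, 7 members were called, and within wash batch 2, 5, and each member had the same direction in both batches. Arg1 (adjusted p = 0.0568), Asl (0.0582) and Cps1 were called in batch 1 and not in batch 2, and Gls2 was called in neither.

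The enzyme and carrier that feed the mitochondrial steps showed the largest increases. Nags, whose product activates CPS1, ran from 1.91 to 2.49 (median 2.23) in CTRL fasted and from 3.03 to 3.63 (median 3.40) in AAKO fasted livers. Every AAKO liver was above every CTRL liver, and the log2 fold change was 1.11 ± 0.12, or 2.16-fold (adjusted p = 2.91e-09). Slc25a15, the ornithine carrier of the mitochondrial membrane, ran from 0.90 to 1.45 (median 1.29) in CTRL and from 1.99 to 2.40 (median 2.20) in AAKO. These groups did not overlap either, and Slc25a15 rose by 0.95 ± 0.09, or 1.93-fold (adjusted p = 9.29e-10). Cps1, the entry enzyme, ran from 6.81 to 7.40 (median 7.01) in CTRL and from 7.35 to 7.79 (median 7.51) in AAKO. The highest CTRL liver lay above the lowest AAKO liver, and the log2 fold change was 0.53 ± 0.12 (adjusted p = 0.000508). Taken alone, wash batch 1 gave 0.75 and wash batch 2 gave 0.31, which was not called (adjusted p = 0.214). CTRL fasted replicate 2 was the highest CTRL liver, and without it the value was 0.60.

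Otc, which carries out the next mitochondrial step, went the other way. Its level ran from 5.36 to 5.85 (median 5.62) in CTRL fasted and from 4.40 to 5.38 (median 5.11) in AAKO fasted livers. AAKO was lower by a log2 fold change of -0.63 ± 0.11 (adjusted p = 2.13e-05), and the groups overlapped only at their edges, between 5.36 and 5.38. The AAKO fasted livers varied more than any other group, with an SD of 0.365 against 0.117 to 0.207 in the other 5 groups.

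The cytosolic enzymes rose together by smaller steps. Asl, argininosuccinate lyase, ran from 7.42 to 7.69 (median 7.57) in CTRL and from 7.81 to 8.17 (median 8.04) in AAKO, a log2 fold change of 0.46 ± 0.10 (adjusted p = 0.000297). Ass1, argininosuccinate synthetase, ran from 9.14 to 9.58 (median 9.34) in CTRL and from 9.68 to 9.86 (median 9.78) in AAKO, with a log2 fold change of 0.41 ± 0.07 (adjusted p = 1.67e-05). The Ass1 probe also matches the transcribed pseudogene Gm5424 by the accessions listed for it, so the 2 transcripts are not separated. Arg1, the arginase that releases urea, ran from 7.86 to 8.01 (median 7.97) in CTRL and from 8.14 to 8.48 (median 8.30) in AAKO, with a log2 fold change of 0.36 ± 0.07 (adjusted p = 7.8e-05). For all 3 genes, every AAKO fasted liver was above every CTRL fasted liver.

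Among the genes that release or capture ammonia, only Gls2 was called after fasting, by its brightest probe. Gls2 ran from 6.35 to 6.87 (median 6.59) in CTRL and from 6.69 to 7.10 (median 6.90) in AAKO, overlapping groups with a log2 fold change of 0.28 ± 0.10 (adjusted p = 0.0198). That call was lost without CTRL fasted replicate 4, CTRL fasted replicate 5 or AAKO fasted replicate 3 (adjusted p between 0.053 and 0.0631). Glud1 differed by -0.15 ± 0.07 (95% interval -0.28 to -0.01, adjusted p = 0.0631) and Glul by 0.17 ± 0.08 (0.00 to 0.33, adjusted p = 0.0846), and neither was called. Both calls depended on the setting and the probe. Glud1 was called with the 75th percentile taken over spots (adjusted p = 0.0491) and without CTRL fasted replicate 6 or AAKO fasted replicate 4, while another Glud1 probe was higher in AAKO (0.20 ± 0.06, adjusted p = 0.00622). Glul was called under array median scaling (0.0239), normexp background correction (0.0389), quantile normalization (0.00745) and the authors' value table (0.011), and without AAKO fasted replicate 3 (0.0264). With its 3 probes averaged it was higher by 0.54 (adjusted p = 3.09e-05), and within wash batch 2 by 0.30 (0.0337), against 0.03 within batch 1. Without CTRL fasted replicate 2 it was 0.11 (0.24).

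Markers of other cells and of hepatocytes also differed between these fasted groups, and their part in the results was not tested. Over all genes tested, 49.2% were called, 21.9% higher and 27.3% lower. The summed level of the 6 hepatocyte markers ran from 12.09 to 12.22 in CTRL fasted and from 11.98 to 12.08 in AAKO fasted livers, with 4 of 6 lower and 1, Hnf4a, higher. The 4 neutrophil markers summed to between 0.44 and 6.18 in CTRL fasted and between 3.05 and 6.85 in AAKO fasted livers, with S100a8 and S100a9 higher and Ly6g and Mpo not called. Among endothelial markers 2 of 5 were higher (Stab2 and Lyve1), among stellate cell markers 2 of 5 (Reln and Dcn), among cholangiocyte markers 2 of 5 were lower, and among Kupffer cell markers 0 of 5 were called. Of 4 lymphocyte markers 1 was lower, of 2 tested acinar cell markers 1 was lower, and of 5 adipocyte markers Plin1 was higher and Adipoq lower. Adipocyte markers summed to between -0.38 and 0.69 over all 6 groups. In these bulk samples, a change in the share of a cell type and a change of RNA per cell cannot be told apart.

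**Figure D2:**
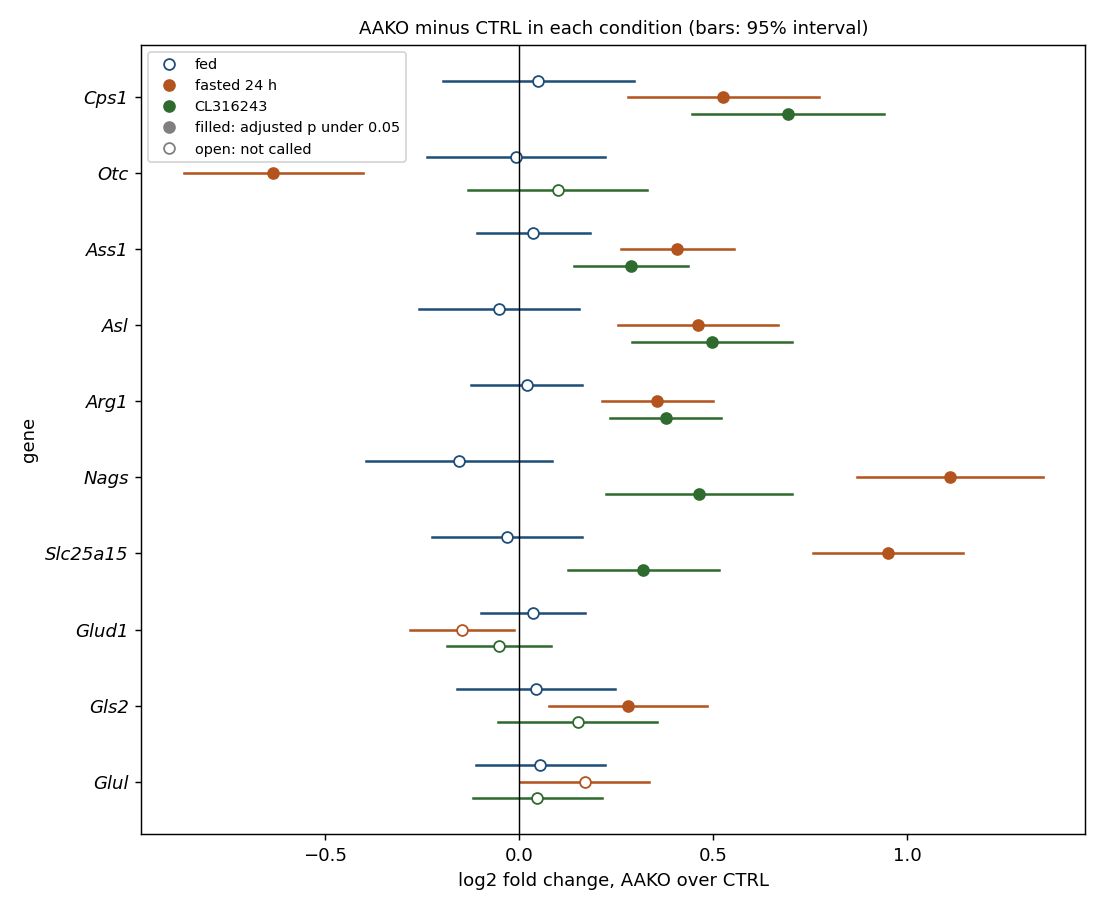
Log2 fold change of AAKO over CTRL (x axis) for each gene (y axis) in fed, fasted and CL316243-treated mice; bars are 95% intervals and filled points have an adjusted p under 0.05. No fed point is filled, 8 fasted points are, with Otc alone to the left of 0, and 6 CL316243 points are.

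After CL316243, the same genotype comparison gave higher levels for the cycle's enzymes without the decrease of Otc. Of the 10 members, 6 were called and all 6 were higher in AAKO (Cps1, Ass1, Asl, Arg1, Nags and Slc25a15); over all genes 24.6% were called, 13% higher and 11.6% lower. The median log2 fold change was 0.30 over the members and 0.03 over all genes. Cps1, Ass1 and Asl did not overlap between the genotypes, against 11.3% of all genes. Within wash batch 1, 3 members were called and within wash batch 2, where AAKO has 2 arrays, 1 was, and all 6 kept their direction in both. Between these groups 1 of 6 hepatocyte markers (Hnf4a) and 2 of 5 endothelial markers (Lyve1 and Clec4g) were higher and 1 of 5 cholangiocyte markers was lower; their part in the results was not tested.

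Cps1 showed the largest of these differences. It ran from 5.80 to 6.23 (median 6.20) in CTRL and from 6.40 to 7.07 (median 6.84) in AAKO livers after CL316243, with every AAKO liver above every CTRL liver. The log2 fold change was 0.69 ± 0.12, or 1.62-fold (adjusted p = 6.51e-05). Asl ran from 5.96 to 6.11 (median 6.05) in CTRL and from 6.30 to 7.03 (median 6.44) in AAKO, with a log2 fold change of 0.50 ± 0.10 (adjusted p = 0.000411). With Asl's 2 probes averaged, that difference was 0.40 (adjusted p = 0.154).

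Nags ran from 2.13 to 2.50 (median 2.29) in CTRL and from 2.44 to 3.01 (median 2.80) in AAKO, overlapping at the edge, with a log2 fold change of 0.46 ± 0.12 (adjusted p = 0.00377). Arg1 ran from 6.96 to 7.27 (median 7.05) and from 7.23 to 7.69 (median 7.47), a log2 fold change of 0.38 ± 0.07 (adjusted p = 0.000133). Ass1 ran from 9.06 to 9.36 (median 9.26) and from 9.40 to 9.69 (median 9.53), a log2 fold change of 0.29 ± 0.07 (adjusted p = 0.0032). The Ass1 difference was not called after quantile normalization (0.19, adjusted p = 0.106) or in the authors' value table (0.18, adjusted p = 0.131). Slc25a15 ran from 1.15 to 1.62 (median 1.22) and from 1.45 to 1.83 (median 1.54), with a log2 fold change of 0.32 ± 0.10 (adjusted p = 0.0123). It was not called without AAKO CL316243 replicate 4 (0.26, adjusted p = 0.0507) or when only the CL316243 groups were fitted (0.32, adjusted p = 0.0549). Within wash batch 1 it was 0.17 (adjusted p = 0.421) and within wash batch 2 it was 0.53 (0.0445).

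Otc did not separate after CL316243: it ran from 5.83 to 6.21 (median 6.03) in CTRL and from 5.95 to 6.27 (median 6.13) in AAKO, a difference of 0.10 (95% interval -0.13 to 0.33). Gls2 differed by 0.15 (interval -0.05 to 0.35), Glul by 0.05 (-0.12 to 0.21) and Glud1 by -0.05 (-0.19 to 0.08), and none was called.

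Whether the genotype difference itself depended on the condition was tested with interaction terms. Against fed liver, the genotype difference was larger in fasted liver for 7 of 10 members, 6 toward higher and Otc toward lower levels in AAKO; over all genes 33.6% were called, 15% higher and 18.6% lower. The interaction was 1.26 ± 0.17 for Nags (adjusted p = 6.44e-07), 0.98 ± 0.13 for Slc25a15 (1.15e-06), -0.62 ± 0.16 for Otc (0.00262), 0.51 ± 0.14 for Asl (0.0054), 0.48 ± 0.17 for Cps1 (0.0298), 0.37 ± 0.10 for Ass1 (0.00449) and 0.34 ± 0.10 for Arg1 (0.0081). The Cps1 term was not called without any 1 of 7 arrays: CTRL fed replicate 1 or 2, AAKO fed replicate 4, CTRL fasted replicate 5 or 6, or AAKO fasted replicate 3 or 6 (adjusted p between 0.0505 and 0.0626). An effect of the experiment that both genotypes share cancels in these terms.

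Against fed liver, the genotype difference was larger after CL316243 for 4 of 10 members, all toward higher levels in AAKO; over all genes 10.9% were called, 6.24% higher and 4.64% lower. The terms were 0.64 ± 0.17 for Cps1 (adjusted p = 0.0119), 0.62 ± 0.17 for Nags (0.0129), 0.55 ± 0.14 for Asl (0.0104) and 0.36 ± 0.10 for Arg1 (0.0156). The term of Slc25a15 was 0.35 ± 0.13 and was not called (0.0912), though it was without CTRL CL316243 replicate 4 (0.42, adjusted p = 0.0315). With Asl's probes averaged, its term was 0.62 and not called (adjusted p = 0.178).

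Between the 2 challenges, which lie in 1 experiment, the genotype difference was larger after fasting than after CL316243 for Nags (0.65 ± 0.17, adjusted p = 0.00313) and Slc25a15 (0.63 ± 0.13, 0.000493), and it was more negative for Otc (-0.73 ± 0.16, 0.000644). These 3 of 10 members compare with 31.8% of all genes called, 13.3% higher and 18.5% lower. For Cps1 the term was -0.17 (95% interval -0.52 to 0.18), for Asl -0.04 (-0.33 to 0.26), for Arg1 -0.02 (-0.22 to 0.18) and for Ass1 0.12 (-0.09 to 0.33), and none of these was called. The genotype difference of these 4 cycle enzymes was not shown to differ between fasting and CL316243.

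Of fasted and CL316243-treated livers, both of experiment 1, the fasted had more Asl, Cps1 and Arg1 and less Otc, Glud1 and, by its brightest probe, Glul in both genotypes. In CTRL these 6 of 10 members were called; over all genes 37.1% were called, 17.8% higher and 19.3% lower. In AAKO all 10 were called, 7 higher and 3 lower, against 60% of all genes, 25.9% higher and 34.1% lower. The groups did not overlap for 5 members in CTRL, against 17.9% of all genes, and for 9 in AAKO, against 37.3%. The median log2 fold change was 0.05 over the members and -0.02 over all genes in CTRL, and 0.47 and -0.08 in AAKO.

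Markers of several cell types differed between the same groups, and their part in these results was not tested. Over all genes, 37.1% were called in CTRL and 60% in AAKO. In CTRL, 3 of 5 endothelial markers were higher in fasted liver (summed level 4.78 to 5.89 against 4.53 to 5.43 after CL316243), 2 of 5 stellate cell markers were higher (6.40 to 6.72 against 5.41 to 5.93), and 1 of 6 hepatocyte markers was higher and 2 lower. In AAKO, 3 of 5 endothelial markers were higher (5.54 to 5.91 against 5.12 to 5.67), 2 of 5 stellate cell markers (6.78 to 7.19 against 5.53 to 6.19) and 2 of 4 neutrophil markers (3.05 to 6.85 against 1.63 to 3.40). Of the 6 hepatocyte markers in AAKO, 1 was higher and 3 lower (11.98 to 12.08 against 12.17 to 12.28), and 2 of 5 cholangiocyte markers were lower. Of 2 tested acinar cell markers, 1 was lower in CTRL and 2 in AAKO. The summed level of 4 acinar markers was 3.76 to 4.32 against 5.27 to 5.97 in CTRL. In AAKO it was 3.39 to 4.28 against 5.19 to 5.86. In CTRL, 1 of 5 cholangiocyte and 1 of 5 adipocyte markers were lower. In AAKO, 1 of 4 lymphocyte markers was lower, and 1 of 5 adipocyte markers was higher and 1 lower.

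Asl showed the largest of these increases: fasted livers ran from 7.42 to 7.69 and CL316243 livers from 5.96 to 6.11 in CTRL, a log2 fold change of 1.51 ± 0.10 (adjusted p = 1.16e-12), and the AAKO value was 1.48 ± 0.10. Cps1 was higher in fasted liver by 0.92 ± 0.12 in CTRL (adjusted p = 3.26e-07) and by 0.75 ± 0.12 in AAKO, and Arg1 by 0.87 ± 0.07 (3.78e-11) and 0.85 ± 0.07. For each of these 3 genes, every fasted liver was above every CL316243 liver of its genotype.

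Nags and Slc25a15 parted between the genotypes. In CTRL, Nags differed between fasted and CL316243 livers by -0.06 (95% interval -0.30 to 0.18) and Slc25a15 by -0.03 (-0.22 to 0.16), and neither was called. In AAKO, Nags was higher in fasted liver by 0.58 ± 0.12 (adjusted p = 7.53e-05) and Slc25a15 by 0.60 ± 0.10 (2.07e-06). The difference between genotypes is the interaction term given above for each gene. Ass1 was higher in fasted liver by 0.26 ± 0.07 in AAKO (0.00265) and differed by 0.14 (interval -0.01 to 0.28) in CTRL.

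Glud1, Otc and, by its brightest probe, Glul were lower in fasted than in CL316243-treated liver. Glud1 ran from 7.22 to 7.43 (median 7.30) in CTRL fasted livers and from 7.64 to 8.02 (median 7.80) after CL316243, with no overlap, a log2 fold change of -0.51 ± 0.07 (adjusted p = 2.12e-07), and the AAKO value was -0.61 ± 0.07. Otc differed by -0.42 ± 0.11 in CTRL (0.0033) and by -1.15 ± 0.11, or 2.23-fold, in AAKO (2.37e-10). Glul, by its brightest probe, differed by -0.69 ± 0.08 in CTRL (4.61e-08) and by -0.57 ± 0.08 in AAKO (3.49e-07). Gls2 was higher in AAKO by 0.36 ± 0.10 (0.00223). In CTRL its difference of 0.24 ± 0.10 was not called (0.0633), but it was under 5 of the alternatives that use all arrays and without any 1 of 4 arrays: CTRL fasted replicate 4 or 5, or CTRL CL316243 replicate 3 or 6 (adjusted p between 0.0233 and 0.0396).

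**Figure D3:**
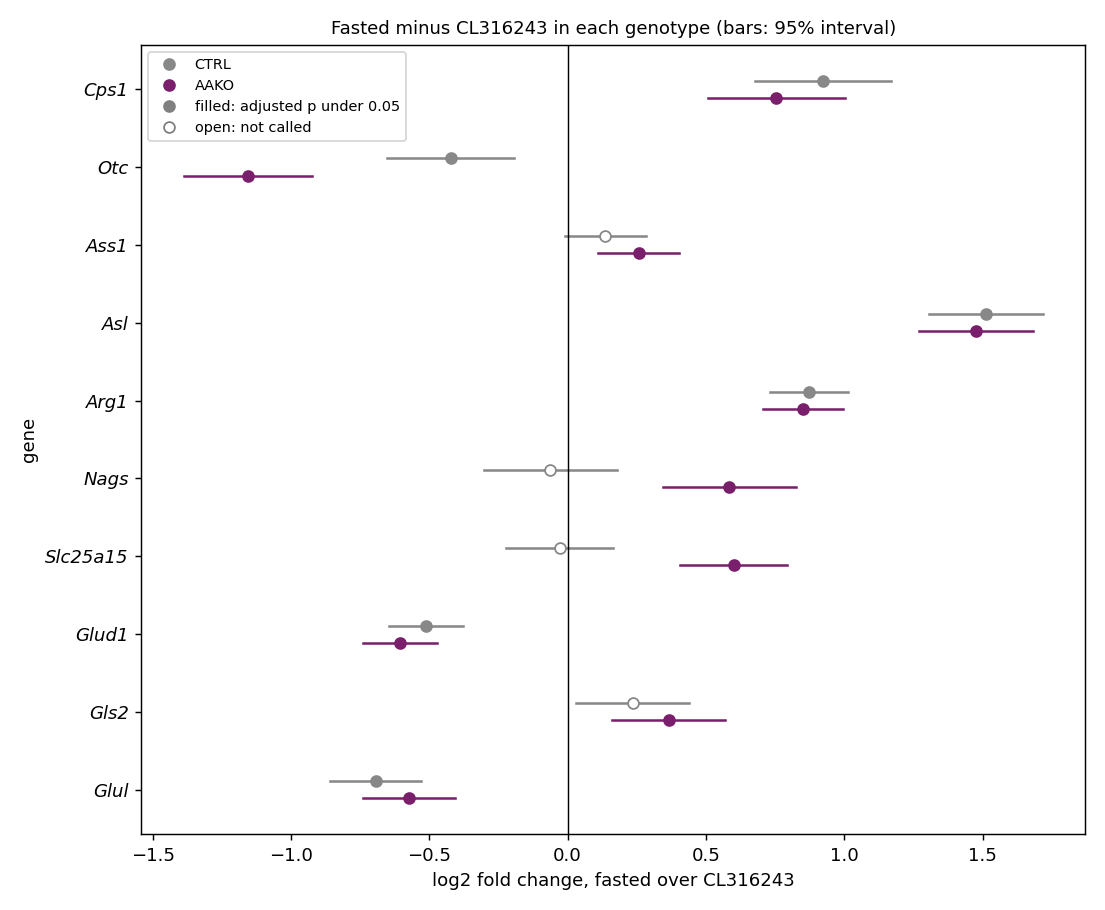
Log2 fold change of fasted over CL316243-treated liver (x axis) for each gene (y axis) in CTRL and AAKO mice; bars are 95% intervals and filled points have an adjusted p under 0.05. Asl, Arg1 and Cps1 lie right of 0 and Otc, Glud1 and Glul (by its brightest probe) left of 0 in both genotypes, while Nags and Slc25a15 sit near 0 in CTRL and to the right in AAKO.

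Comparisons with fed liver share the fed arrays and cannot be told apart from the difference between experiments, so their values are given side by side. Markers moved here too, and their part was not tested. In fasted against fed liver, 3 of 5 cholangiocyte markers were lower in each genotype. Kupffer cell markers were lower for 2 of 5 in CTRL and 3 of 5 in AAKO. Of 6 hepatocyte markers, 1 was higher and 1 lower in CTRL, and 1 was higher and 4 lower in AAKO. Of 5 stellate cell markers, 2 were higher and 1 lower in each genotype, and of 5 adipocyte markers 1 was higher and 1 lower in each. Of 5 endothelial markers, 1 was higher and 1 lower in CTRL, and 2 were higher and 2 lower in AAKO. Of 4 neutrophil markers, 0 were called in CTRL, and 2 were higher and 1 lower in AAKO. Of 4 lymphocyte markers, 1 was lower in CTRL and 2 in AAKO. Of 2 tested acinar cell markers, 1 was lower in CTRL and 2 in AAKO. After CL316243 against fed liver, 4 of 5 endothelial markers were lower in CTRL (summed level 4.53 to 5.43 against 5.49 to 6.05) and 2 of 5 in AAKO. Kupffer cell markers were lower for 2 of 5 in CTRL (4.02 to 5.85 against 5.21 to 6.42) and for 4 of 5 in AAKO (5.15 to 5.80 against 5.92 to 6.70), and stellate cell markers for 3 of 5 in each. Cholangiocyte markers were lower for 1 of 5 in each genotype. In CTRL 1 of 6 hepatocyte markers was lower, and in AAKO 1 of 4 neutrophil and 1 of 4 lymphocyte markers were lower. In fasted against fed liver, 8 of 10 members were called in CTRL (4 higher, 4 lower; all genes 43.8%, 19.7% higher and 24.1% lower) and all 10 in AAKO (7 higher, 3 lower; all genes 63.6%, 27.5% higher and 36.1% lower). Asl was higher by 0.99 ± 0.10 in CTRL and 1.50 ± 0.10 (2.83-fold) in AAKO, and Arg1 by 0.76 ± 0.07 in CTRL and 2.14-fold in AAKO. Slc25a15 was higher by 0.28 ± 0.09 and 1.26 ± 0.09. Nags was lower by -0.54 ± 0.12 in CTRL (adjusted p = 0.000309) and higher by 0.72 ± 0.12 in AAKO (2.7e-06). Each of these signs could include a difference between experiments. Only the difference between the genotypes, the interaction term given above for Nags, is free of an experiment effect that both share. Otc was lower by -0.66 ± 0.11 and -1.28 ± 0.11, and Glud1 by -0.60 ± 0.07 and -0.79 ± 0.07. Glul, by its brightest probe, was called lower in both genotypes, by -0.53 in CTRL and -0.42 in AAKO. With its probes averaged, the AAKO value turned to 0.20 and was not called (adjusted p = 0.0771).

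The calls with smaller values changed with single arrays or with the scaling. Cps1 was higher by 0.32 ± 0.12 in CTRL (adjusted p = 0.0306) and by 0.80 ± 0.12 in AAKO (8.24e-07). The CTRL call was lost without CTRL fed replicate 5 or 6 or CTRL fasted replicate 2 or 3 (adjusted p between 0.0581 and 0.104), and under array median scaling (0.101) or with slide as a fixed factor (0.103). Under array median scaling the Slc25a15 difference in CTRL was also not called (0.22, adjusted p = 0.0537). Ass1 differed by -0.09 ± 0.07 in CTRL, not called, and by 0.28 ± 0.07 in AAKO (0.0011). Gls2 was higher in AAKO by 0.26 ± 0.10 (0.0252), a call lost without AAKO fed replicate 5 or 6 or AAKO fasted replicate 1 or 3 (between 0.0527 and 0.0801) and with its probes averaged (0.0772).

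After CL316243 against fed liver, 5 of 10 members were called in CTRL (1 higher, 4 lower; all genes 23.1%, 10.4% higher and 12.7% lower) and 3 of 10 in AAKO (2 higher, 1 lower; all genes 31.4%, 15.5% higher and 15.9% lower). In CTRL, Cps1 differed by -0.60 ± 0.12 (adjusted p = 0.000429), Asl by -0.52 ± 0.10 (0.000275), Nags by -0.48 ± 0.12 (0.00296), Ass1 by -0.23 ± 0.07 (0.0179) and Slc25a15 by 0.31 ± 0.09 (0.0161). In AAKO the same 4 genes that were lower in CTRL differed by 0.04, 0.03, 0.14 and 0.02, and none was called. Slc25a15 was higher by 0.66 ± 0.10 (2.51e-06), Arg1 by 0.25 ± 0.07 (0.00714), and Glud1 differed by -0.18 ± 0.07 (0.0348).

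Several of these calls rested on single arrays. The Ass1 call in CTRL was lost without CTRL fed replicate 2 or CTRL CL316243 replicate 5 (adjusted p 0.0615 at most) and when only the groups compared were fitted (0.0777). The Asl call in CTRL was lost with its probes averaged (-0.16, adjusted p = 0.628). The Slc25a15 call in CTRL was lost without CTRL CL316243 replicate 4 (0.24, adjusted p = 0.0618). Gls2 and Glul, not called in the main fit, were called under some alternatives. In CTRL, Gls2 was called with its probes averaged (-0.35, adjusted p = 0.0173). Glul was called in CTRL in the authors' value table (0.21, 0.0394) and after quantile normalization (0.22, 0.0287). In AAKO it was called after quantile normalization (0.19, 0.04). The Glud1 call in AAKO was lost without AAKO fed replicate 4, 5 or 6 or AAKO CL316243 replicate 1, 3 or 6 (between 0.0582 and 0.101), and under 6 of the 15 other alternatives, both wash batches taken alone among them.

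For 5 members the array held more than 1 probe, and for Glul and Glud1 the probes disagreed in fasted AAKO against CTRL liver. For Asl and Gls2, averaging the probes changed calls in other comparisons. In CL316243 against fed CTRL liver the average was -0.16 for Asl (adjusted p = 0.628), whose brightest probe was called. There it was -0.35 for Gls2 (0.0173), whose brightest probe was not called. The 3 Glul probes lie in order on the plus strand of chromosome 1 at chr1:155751765-155751824, chr1:155755109-155755168 and chr1:155756765-155756824, and the last, which is the brightest, stands for the gene above. The first and second are printed because they gave another answer than the third.
Glul first probe: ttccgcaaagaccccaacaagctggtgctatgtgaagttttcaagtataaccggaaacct
Glul second probe: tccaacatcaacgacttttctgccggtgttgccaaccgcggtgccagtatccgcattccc

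The second Glul probe ran from 4.56 to 4.96 (median 4.77) in CTRL fasted and from 5.32 to 5.72 (median 5.50) in AAKO fasted livers, with no overlap. AAKO was higher by 0.74 ± 0.10 in a fit over all tested probes (adjusted p = 3.78e-07). The first probe ran from 0.99 to 2.06 (median 1.55) in CTRL and from 2.04 to 2.47 (median 2.32) in AAKO, higher by 0.72 ± 0.17 (0.000544). The third probe, in the same fit, differed by 0.17 ± 0.08 (0.0864). Genotype by fasting terms were 0.70 ± 0.14 for the second (0.000283), 0.70 ± 0.24 for the first (0.0207) and 0.11 ± 0.12 for the third probe (0.482).

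The direction in AAKO fasted against AAKO CL316243 liver also depended on the probe. The first and second probes were higher in fasted liver by 0.98 ± 0.17 (adjusted p = 7.22e-06) and 0.57 ± 0.10 (1.28e-05), and the third was lower, by -0.57 ± 0.08 (4.07e-07). In CTRL the third probe was lower by -0.69 ± 0.08, while the first differed by -0.00 ± 0.17 and the second by -0.15 ± 0.10, neither called. With the 3 probes averaged, Glul was higher in AAKO than in CTRL fasted liver by 0.54 ± 0.10 (adjusted p = 3.09e-05). The difference between probes was not tested.

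**Figure D4:**
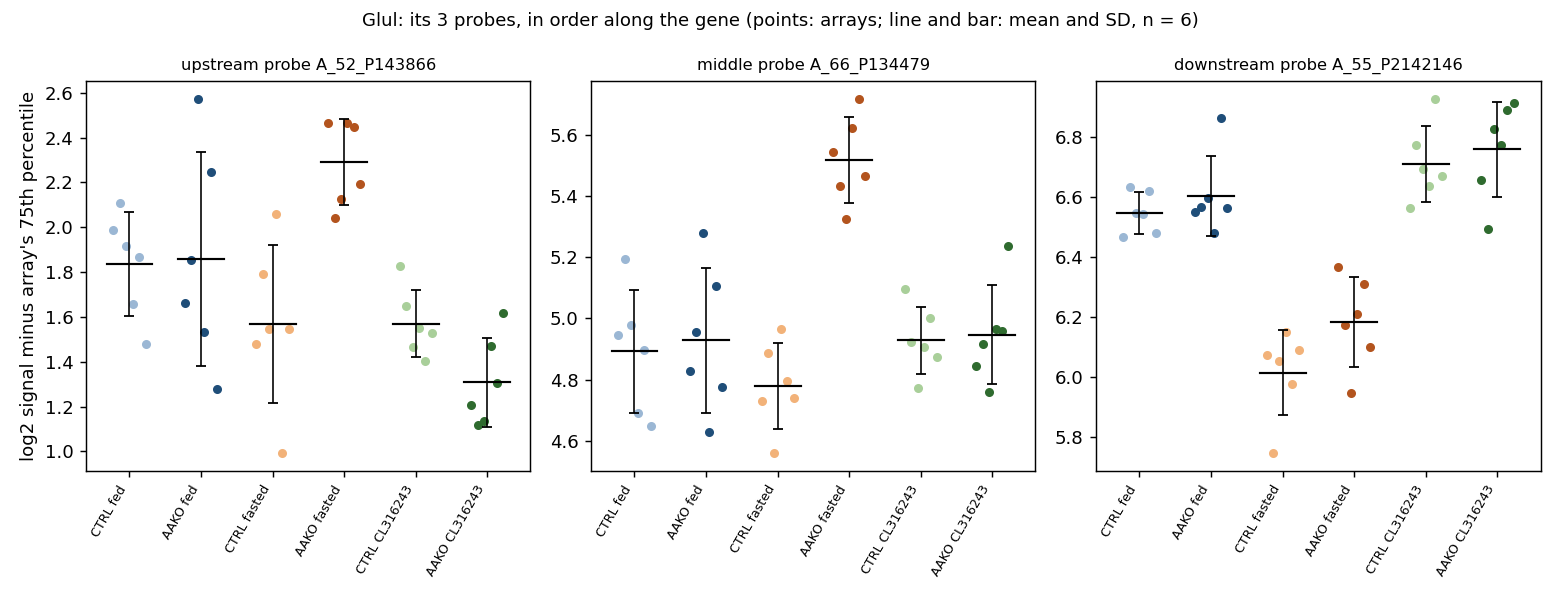
Level of the 3 Glul probes on each array (log2 signal minus the array's 75th percentile, y axis) in the 6 groups (x axis), in their order along the gene; points are arrays, lines and bars the mean and SD, n = 6. AAKO fasted livers had the highest mean for the first and second probes, while for the third both fasted groups lay below the other 4.

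The other probes ran the same way as those that stand for Otc, Asl and Gls2 in fasted AAKO against CTRL liver. The second, dimmer Otc probe ran from -3.62 to -1.13 (median -1.48) in CTRL fasted and from -6.17 to -3.18 (median -3.45) in AAKO fasted livers, where it was well above background on 5 of 6 arrays. Its log2 fold change was -2.28 ± 0.35 (adjusted p = 2.52e-06), against -0.63 for the brighter probe. The second Asl probe ran from 3.68 to 5.01 (median 4.20) in CTRL and from 5.02 to 5.69 (median 5.35) in AAKO, higher by 1.11 ± 0.36 (0.0115), and after CL316243 it differed by 0.29 ± 0.37, not called. The second Gls2 probe was higher by 0.44 ± 0.15 (0.0173). Of the dimmer Glud1 probes, one differed by -0.15 ± 0.11 (not called) and one was higher by 0.20 ± 0.06 (0.00622).

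Around the cycle, other enzymes of amino acid nitrogen showed mixed directions in fasted AAKO against CTRL liver. Of 20 such enzymes, 9 were higher and 5 lower, with a median log2 fold change of 0.13; of all genes 21.9% were higher and 27.3% lower, with a median of -0.03. Sds, serine dehydratase, which frees ammonia from serine, was higher by 1.98 ± 0.21 (adjusted p = 3.58e-09), from a mean of 5.23 in CTRL to 7.21 in AAKO. Got1, the cytosolic aspartate aminotransferase that can supply aspartate to ASS1, was higher by 1.90 ± 0.19 (9.64e-10). Sirt5, a mitochondrial deacylase known to act on CPS1, was lower by -1.04 ± 0.10 (2.51e-10), and Gldc, the glycine decarboxylase, by -0.83 ± 0.14 (9.68e-06). The groups did not overlap for any of these 4 genes, against 21.2% of all genes. Since these genes were picked for the largest changes in this comparison, the lack of overlap is no separate result.

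Of 13 carriers of amino acids and related solutes, 8 were higher and 2 lower in fasted AAKO liver, with a median log2 fold change of 0.75, against the same 21.9% and 27.3% of all genes. Slc7a1 and Slc7a2, transporters of arginine and ornithine at the plasma membrane, were higher by 2.15 ± 0.22 (adjusted p = 1.06e-09) and 1.70 ± 0.14 (2.4e-11). Aqp9, an aquaglyceroporin that passes glycerol and urea, was lower by -1.32 ± 0.11 (6.69e-11). Slc25a13, citrin, which brings mitochondrial aspartate to the cytosol, was lower by -0.82 ± 0.06 (7.66e-12). Among 11 regulators, 9 were higher and 1 lower, with a median of 0.88, against 21.9% and 27.3% of all genes. The lists of enzymes, carriers, regulators and zonation genes were chosen with earlier results of these data known, so their counts only describe them. Some genes count in more than 1 list. Sds and Hal are also periportal genes, and Oat, Slc1a2 and Rhbg are also pericentral genes. Klf15, a factor known to induce amino acid catabolism, was higher by 1.38 ± 0.15 (3.4e-09), Foxo1 by 1.23 ± 0.16 (1.26e-07), and Gcgr, the glucagon receptor, was lower by -0.60 ± 0.06 (1.63e-09).

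Zonation genes, which mark the periportal region where urea is made and the pericentral region where Glul is active, were called in both directions. Of all genes 21.9% were higher and 27.3% lower. Of 11 pericentral genes, 0 were higher and 5 lower (median -0.10), with Tbx3 lower by -2.10 ± 0.37 (adjusted p = 1.93e-05) and Lgr5 by -1.56 ± 0.34 (0.000247). Of 8 periportal genes, 2 were higher (Sds and Cdh1, the latter by 0.59 ± 0.16) and 4 lower (Hsd17b13, Ctsc, Pigr and Sfxn1, named here after their values were seen), with a median of -0.23.

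**Figure D5:**
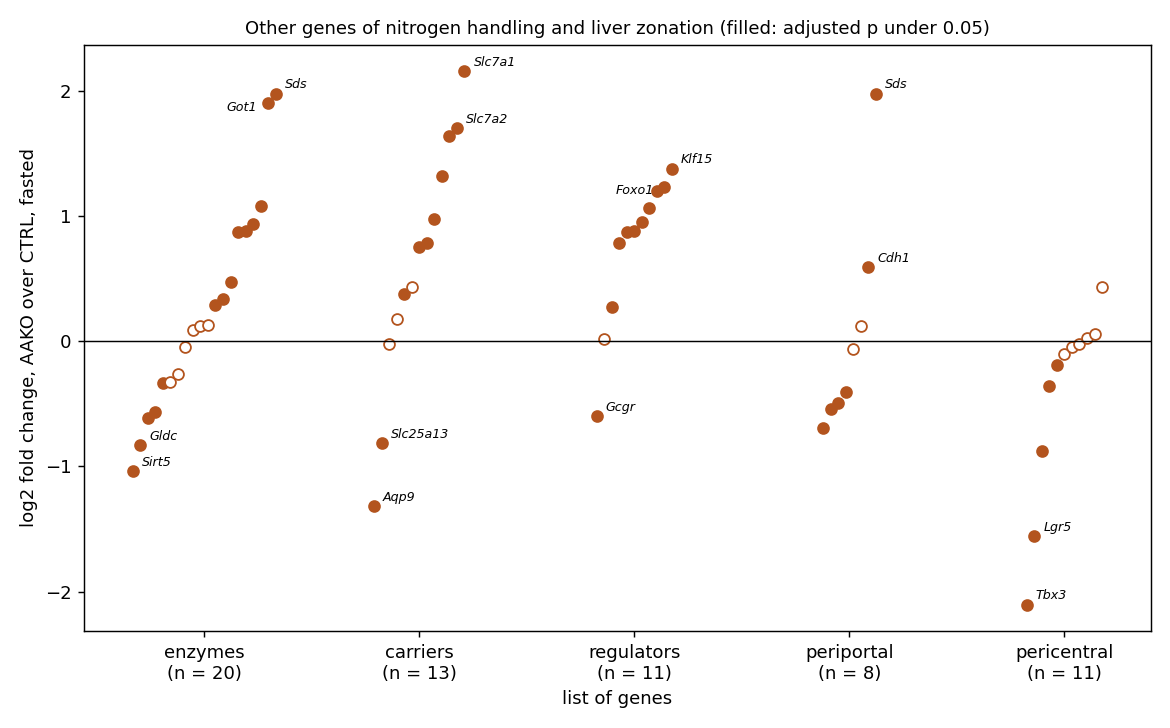
Log2 fold change of AAKO over CTRL in fasted liver (y axis) for the genes of 5 lists (x axis); each point is a gene and filled points have an adjusted p under 0.05. Named points are the called genes with the largest change in each direction, with Slc7a1 the highest at 2.15 and Tbx3 the lowest at -2.10.

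After CL316243 the calls between genotypes in the same lists were 5 enzymes higher and 5 lower, 3 carriers higher and 2 lower, 2 regulators higher and 3 lower, 3 periportal genes higher and 1 lower, and 0 pericentral genes higher and 3 lower, against 13% of all genes higher and 11.6% lower. Sds was again higher, by 1.41 ± 0.21 (adjusted p = 8.38e-06), and Got1 by 0.88 ± 0.19, while Gldc was lower by -0.75 ± 0.14 and Car5a, the mitochondrial carbonic anhydrase that supplies bicarbonate to CPS1, by -0.60 ± 0.18. Slc38a2, a neutral amino acid transporter, was higher by 1.58 ± 0.24 and Slc7a2 by 0.65 ± 0.14, and Slc25a22, a mitochondrial glutamate carrier, was lower by -0.74 ± 0.12 and Slc25a13 by -0.33 ± 0.06. Among regulators and zonation genes, Hnf4a was higher by 0.38 ± 0.11, Crtc2 by 0.28 ± 0.08, Hal by 0.72 ± 0.14, while Foxo3 was lower by -0.49 ± 0.18, Cebpa by -0.38 ± 0.13, Lect2 by -0.65 ± 0.12 and Hsd17b13 by -0.58 ± 0.15.

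Between fasted and CL316243-treated CTRL liver, 8 of the 20 enzymes were higher and 4 lower in fasted liver, 3 of 13 carriers were higher and 4 lower, and 1 of 11 regulators was higher and 4 lower, against 17.8% of all genes higher and 19.3% lower. Gldc was higher by 1.17 ± 0.14, and Car5a was lower by -1.62 ± 0.18 and Aldh4a1, an enzyme of proline breakdown, by -0.68 ± 0.07. Arg2, the extrahepatic arginase, was well above background on 3 of 6 fasted and 0 of 6 CL316243 arrays. It was called higher in fasted liver, but that call rests on values near or below background, so no size is given. Slc7a2 was higher by 1.04 ± 0.14 and Slc25a12 by 0.83 ± 0.11, and Slc38a3, the glutamine transporter of hepatocytes, was lower by -1.10 ± 0.09 and Slc25a2, well above background on 5 of 6 fasted and 6 of 6 CL316243 arrays, by -0.84 ± 0.25. Crtc2 was higher by 0.49 ± 0.08, Cebpa lower by -0.90 ± 0.13 and Foxo3 by -0.68 ± 0.18. None of the 11 pericentral genes was higher and 6 were lower, among them Lgr5 by -1.25 ± 0.34 and Lect2 by -1.14 ± 0.12, and of the 8 periportal genes 3 were higher, among them Hal by 1.05 ± 0.14 and Hsd17b13 by 0.76 ± 0.15, and 1 was lower.

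The order of the 6 groups differed between members. For Asl and Arg1, AAKO fasted was highest and CTRL fasted second, and neither overlapped its neighbour below. For Slc25a15 only AAKO fasted stood clear of the group below it. For Nags, AAKO fasted was highest and CTRL fasted lowest, with a mean of 3.35 against 2.24, and every group overlapped its neighbour in that order. For Glud1 and Glul, each by its brightest probe, the fasted groups were lowest, overlapped each other and lay clear of the other 4 groups. For the first and second Glul probes, AAKO fasted livers instead had the highest mean.

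Across the 36 arrays, the tested gene outside these lists whose level followed each member most closely by Pearson's r was Uqcr11 for Otc (0.97), Sdsl for Arg1 (0.97), Ulk2 for Glud1 (0.96), Serinc3 for Asl (0.95) and Kif21a for Slc25a15 (0.94). It was Rbm15b for Nags (0.91), Ppp1r12c for Cps1 (0.91), Cmtm6 for Glul (0.89), a noncoding transcript without a symbol for Ass1 (0.86) and Etnppl for Gls2 (0.76). These values describe 6 groups of 6 arrays and follow the differences between groups.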

How the data were processed

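Per the file headers, spot intensity values came from Agilent Feature Extraction 10.10.1.1 (design 074809, mm9). The authors' deposited table of log2 values, whose columns share 1 set of sorted values within each group, with column medians from 6.88 to 7.01, was an alternative; its centring is not given in the sources used here, and the submitters' processing notes name limma. From the processed signal, outlier-marked spots were dropped, spots of a probe averaged on the log2 scale and the array's 75th percentile of averaged probes subtracted. The brightest probe stood for a gene. Genes were tested where that probe was well above background on 5 of 6 arrays of any group. limma 3.58.1 (lmFit, eBayes; R 4.3.3) fitted 6 group means and wash batch, with Benjamini-Hochberg adjustment over 24097 genes in each of 12 comparisons; the fit was tested on simulated data. Members and gene lists were chosen with earlier results of these data known; the named genes were the called genes of each list with the largest change in each direction, up to 2 (zonation genes counting as 1 list), in 3 comparisons, and for each member its closest gene over the arrays. Percentile scaling over averaged probes rather than spots was settled after the members' values were seen, so the other scaling was added as an alternative. The number of arrays limits the precision. P-values set each difference against the spread between arrays within the 6 groups. With 1 array per mouse, that spread holds differences between mice and between arrays together.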

Additional observations from a re-analysis of the deposited data

Results flagged for a closer look

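The genotype difference depended on the condition, by the interaction terms, for 14 member results. These were 7 of 10 members for fasting against fed, 4 for CL316243 against fed and 3 for fasting against CL316243. Over all genes, 33.6%, 10.9% and 31.8% were called in the same terms, so the last count is near the share of all genes. Against fed liver, fasting gave 1.26 for Nags, 0.98 for Slc25a15, 0.51 for Asl, 0.48 for Cps1, 0.37 for Ass1, 0.34 for Arg1 and -0.62 for Otc on the log2 scale. Against fed liver, CL316243 gave 0.64 for Cps1, 0.62 for Nags, 0.55 for Asl and 0.36 for Arg1. Between fasting and CL316243 the terms were 0.65 for Nags, 0.63 for Slc25a15 and -0.73 for Otc.

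In 3 of 60 sets of 6 arrays, 1 array lay far from the rest by Dixon's ratio, its gap to the nearest array over the whole range; chance gives about 1 in 20. Ass1 was lowest in AAKO fed replicate 6 (9.34, nearest 9.50, ratio 0.788). Glul was highest in AAKO fed replicate 5 (6.86, nearest 6.60, ratio 0.697). Slc25a15 was highest in CTRL CL316243 replicate 4 (1.62, nearest 1.31, ratio 0.646).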

How the results depend on the processing

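Of 120 member results, 70 were called. All 70 kept their sign under every alternative run except Glul with all tested probes averaged, which turned in AAKO fasted against CL316243 (0.33, adjusted p = 0.00552) and in AAKO fasted against fed (0.20, adjusted p = 0.0771). Within wash batch 1, 50 of the 70 and within wash batch 2, 37 stayed called; each batch holds fewer arrays. Within batch 1 the members called were 3 for genotype after CL316243, 5 for fasted against fed CTRL, 2 for CL316243 against fed CTRL, 1 for CL316243 against fed AAKO, 4 for genotype by fasting and 1 for genotype by CL316243. Within batch 2 they were 5 for genotype after fasting, 1 for genotype after CL316243, 1 and 1 for CL316243 against fed CTRL and AAKO, 2 for genotype by fasting, 0 for genotype by CL316243 and 0 for genotype by fasting against CL316243.

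Leaving out 1 array, counts of called members ran from 0 to 0 for genotype in fed liver, 7 to 9 fasted and 5 to 6 after CL316243; 7 to 8 (CTRL) and 9 to 10 (AAKO) for fasted against fed; 4 to 5 and 2 to 3 for CL316243 against fed; 6 to 7 and 10 to 10 for fasted against CL316243; 6 to 7 and 4 to 5 for the 2 interactions with fed, and 3 to 3 for the third. The 75th percentile over spots, added after the data were seen, gave 9 and 7 called members in genotype fasted and in fasted against CL316243 CTRL, in place of 8 and 6. The main fit did not pair arrays by replicate number. Deviations from group means correlated from -0.22 to 0.36 between same-number arrays, and in AAKO against CTRL fed liver 3 of 6 pairs exceeded 0.1. Arrays of different number were not compared, so these values cannot decide whether the numbers pair the samples. With the replicate block, Gls2 in fasted against CL316243 CTRL was called (adjusted p = 0.0453) and no other call changed.

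The median over all tested genes moved, in the authors' value table, from -0.10 to 0.01 in fasted against fed AAKO and from -0.08 to 0.05 in fasted against CL316243 AAKO, and the share of called genes that were higher moved from 43.2% to 51.8% and from 43.2% to 58.1%. That share moved from 45.0% to 56.2% in fasted against fed CTRL, 48.0% to 59.9% in fasted against CL316243 CTRL, 52.6% to 66.7% in genotype in fed liver (27 genes called), 52.8% to 42.3% in genotype after CL316243, 57.4% to 44.2% in genotype by CL316243 and 41.9% to 54.9% in genotype by fasting against CL316243. Under normexp it was 32.7% in fasted against CL316243 AAKO.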
